A study of Mus musculus with 167 samples.

Results

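De novo lipogenesis, the making of fatty acids from carbohydrate carbon, was followed in mouse liver through 10 genes: Acly, Acaca, Acacb, Fasn, Elovl6, Scd1, Me1, Srebf1, Thrsp and Pnpla3. Each gene was represented by the probe set that the platform annotates to it alone, and where there were several by the one with the highest mean over all arrays. These are 10 of the 18194 genes with such a probe set, and all 10 were among the 12622 genes bright enough to be tested. Expression was measured on Affymetrix GeneChip mouse arrays in livers of male C57BL/6 mice, with 167 arrays labelled as 167 animals and giving 166 samples after 1 near-identical pair was averaged. Mice were of 3 genotypes from TaconicArtemis, namely a knockout of the nuclear receptors CAR and PXR, a humanized line with the human CAR and PXR, and the wild type. The labels give an age of 9 to 11 weeks for every sample, whatever its day, so this cannot be the age at sampling on every day. In each genotype 1 arm drank water with phenobarbital (PB), at 0.05% (wt/vol) per the treatment text, and the control arm did not receive PB. Smaller concentrations and a further age at the start are named in the same text, and the dose of an individual sample is not labelled. Sampling fell on dosing days 1, 7, 14, 28 and 91, and day 119 came 4 weeks after the last dose, with 3 to 5 animals in each of the 36 groups. Over all days the PB and control arms held 28 and 27 knockout, 26 and 29 humanized, and 29 and 27 wild-type samples. Over the 5 dosing days they held 24 and 22 knockout, 23 and 24 humanized, and 24 and 22 wild-type samples.

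PB is a barbiturate that activates CAR, and CAR and PXR switch on drug metabolism genes in the liver. Lipogenesis in the liver rises with feeding: insulin raises and activates SREBP-1c, made from Srebf1, while glucose activates ChREBP, and the liver X receptors act on Srebf1 itself. Citrate leaving the mitochondria is cleaved to acetyl-CoA, carboxylated to malonyl-CoA and built into palmitate, which is then elongated, desaturated and stored as triglyceride. Because the enzymes of this chain share these regulators, their transcripts usually move together in liver.

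All values are log2 RMA expression, so a difference of 1 is a 2-fold change, and levels of different genes are not comparable with each other because each probe set has its own response. Gene positions are those of RefSeq on GRCm38. Called means an adjusted p below 0.05 from limma with Benjamini-Hochberg adjustment over all 12622 genes, and the value after ± is a standard error unless SD is written. In whole liver, fewer cells of a type and less RNA per cell cannot be told apart. The targeted receptor genes followed the labels: on dosing days Nr1i3, the CAR gene, averaged 4.97 with PB and 4.92 without it in the knockout, 5.07 and 5.10 in the humanized line and 8.21 and 8.40 in the wild type. Nr1i2, the PXR gene, averaged 3.67 and 3.55 in the knockout, 3.65 and 3.73 in the humanized line and 7.56 and 7.50 in the wild type. Cyp2b10, the usual transcript readout of CAR, averaged 5.67 with PB and 5.49 without it in the knockout, against 12.64 and 7.94 in the humanized line and 12.99 and 6.48 in the wild type. On dosing days the mean level of 6 hepatocyte markers was 14.31 with PB and 14.33 without it in the knockout. It was 14.25 and 14.31 in the humanized line and 14.26 and 14.32 in the wild type, slightly lower with PB in each. These levels are near the highest value of any probe set (15.07), where changes may be compressed. Knockout PB arrays 4019 (day 28) and 4024 (day 91) held almost the same values under 2 labels, and each stayed in its own group. Without both, 4 members were called over the dosing days in the knockout (against 3 with both, where 19.6% of all genes were called). The share of all genes without both was not worked out, so the added call is no result about the members. Without both, Fasn was at 0.64 (adjusted p = 0.003), and of the single calls Srebf1 on day 1 was lost (0.0504). Pancreas acinar or adipose markers were high in 24 animals (a mean over 7 acinar markers above 8 or over 3 adipose markers above 7), and the results below are given without these animals where that changed a call.

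The promoters of 4 members are shown as examples that differ in 2 motifs of lipogenic promoters: Fasn, Acly and Srebf1 were the members called over the dosing days in the knockout, and Thrsp had the largest such rise in the wild type. Fasn and Srebf1 carry the liver X receptor element in the spelling searched, Thrsp has only CCAAT boxes and Acly has neither motif as searched. Each line gives the 250 bases before the start of transcription, 5′ to 3′ on the gene's strand, from RefSeq (GRCm38.p6). Capitals mark matches to the liver X receptor element (GGTTAC, any 4 bases, then GGTCA) or to the CCAAT box, which NF-Y binds, on either strand.
Fasn: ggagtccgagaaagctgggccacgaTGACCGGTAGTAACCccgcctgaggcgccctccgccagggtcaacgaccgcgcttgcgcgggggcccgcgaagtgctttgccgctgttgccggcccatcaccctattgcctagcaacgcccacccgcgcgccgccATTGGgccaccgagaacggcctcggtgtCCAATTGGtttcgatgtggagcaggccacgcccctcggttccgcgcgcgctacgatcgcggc
Srebf1: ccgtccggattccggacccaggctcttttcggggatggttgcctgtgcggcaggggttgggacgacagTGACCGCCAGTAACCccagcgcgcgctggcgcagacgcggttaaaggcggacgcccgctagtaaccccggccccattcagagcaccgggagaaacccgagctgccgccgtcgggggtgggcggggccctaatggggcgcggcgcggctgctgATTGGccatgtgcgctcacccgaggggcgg
Thrsp: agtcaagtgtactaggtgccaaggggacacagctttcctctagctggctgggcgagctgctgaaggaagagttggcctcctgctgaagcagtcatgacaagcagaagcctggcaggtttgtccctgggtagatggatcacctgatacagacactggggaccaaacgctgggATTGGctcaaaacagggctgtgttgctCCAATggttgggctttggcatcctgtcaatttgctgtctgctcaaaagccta
Acly: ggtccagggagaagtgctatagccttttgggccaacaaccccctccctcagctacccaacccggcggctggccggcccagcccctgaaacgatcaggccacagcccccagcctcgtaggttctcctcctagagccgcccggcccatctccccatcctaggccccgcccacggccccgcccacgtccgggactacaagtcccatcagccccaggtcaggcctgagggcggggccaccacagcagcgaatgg
The Fasn window is chr11:120824548-120824797 on the minus strand, the Srebf1 window chr11:60210472-60210721 on the minus strand, the Thrsp window chr7:97417551-97417800 on the minus strand and the Acly window chr11:100528001-100528250 on the minus strand. Srebf1 has 3 starts in the RefSeq table, and the one shown lies nearest the 3′ end of the gene. In Fasn the liver X receptor element begins 225 bases before the start and CCAAT boxes begin 90, 62 and 59 bases before it, where the matches at 62 and 59 overlap. In Srebf1 the element begins 182 bases before the start and a CCAAT box 30 bases before it, and in Thrsp CCAAT boxes begin 79 and 52 bases before it.

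Of the 10 members, 9 are in the RefSeq promoter table with 12 promoters, and Scd1 was not among them. The liver X receptor element in the spelling given above was present in 12 of 32851 promoters of this length (0.0365%), and 2 of the 9 members had it. Other spellings of the element were not searched, so this is not the share of promoters with any such element. The spelling is the form that the Fasn and Srebf1 promoters hold, so their match is a description and no result about the members. The CCAAT box was present in 11120 promoters (33.8%) and in 6 of the 9 members, namely Acacb, Fasn, Me1, Pnpla3, Srebf1 and Thrsp. Members are counted here by gene, with a match at any start, and Srebf1 has 3 starts and Me1 2. The member counts and the shares of promoters are thus in unlike units. A sterol regulatory element (ATCAC, 1 base of any kind, then CCAC) was found in 63 promoters (0.192%) and in 0 members, and the E-box CACGTG in 1978 (6.02%) and in 0 members. These are matches of letters in a 250-base window and not measured binding.

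After 1 day of PB most members were called higher in the knockout, which lacks CAR and PXR, and in the humanized line, and few in the wild type. In the knockout 8 of 10 members were called on day 1, all higher, where 8.08% of all genes were called in either direction. In the humanized line 6 of 10 were called on day 1, all higher, against 11.7% of all genes, and in the wild type 2 of 10, both higher, against 12.0%. The median of the 10 differences on day 1 was 1.04 in the knockout, 0.90 in the humanized line and 0.69 in the wild type, where the median of all genes was 0.00, −0.01 and −0.01. The number of calls does not show that the genotypes differed. The day 1 effect itself was called between knockout and wild type for 0 of 10 members (limma, 2 of 10 at an unadjusted p under 0.05, 1.26% of all genes called). The same test gave 0 of 10 for the humanized line against the wild type (0 unadjusted, 0.111% of all genes) and 0 of 10 for the humanized line against the knockout (1 unadjusted, 0.333% of all genes). The largest of these differences was for Srebf1, whose day 1 effect was 0.98 higher in the knockout than in the wild type (adjusted p = 0.0642).

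**Figure D1:**
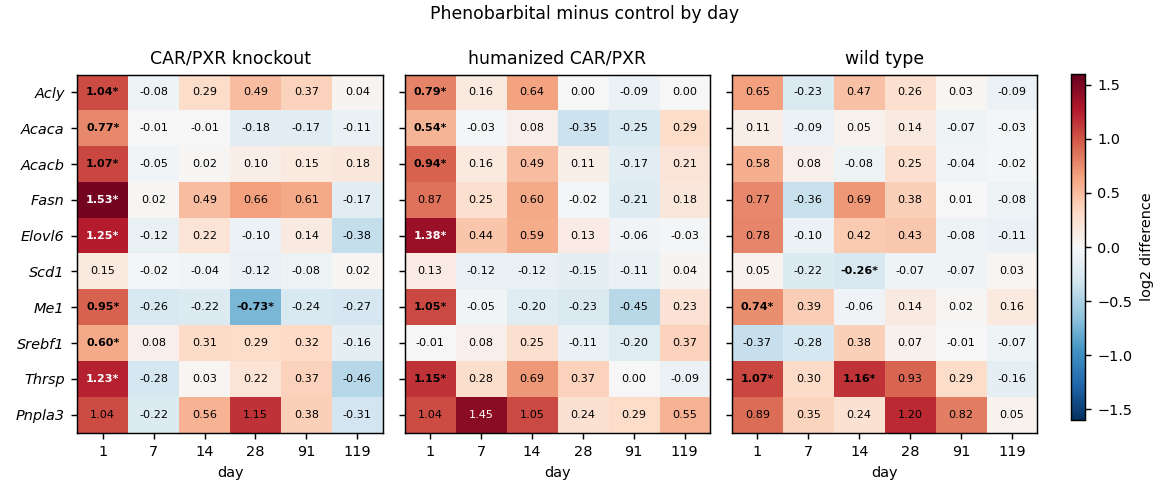
PB minus control for each member (rows) on each day (columns) in the knockout, humanized and wild-type livers, as log2 differences of the fit, coloured from blue (lower with PB) to red (higher), with an asterisk where the gene was called. The day 1 columns are red in all 3 panels except for Srebf1 in humanized and wild-type livers (−0.01 and −0.37), with 8, 6 and 2 calls, and later days hold few calls.

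Acly (chr11:100476352-100528000), the cytosolic enzyme that cleaves citrate to acetyl-CoA, had 12.95, 12.95, 12.66, 12.01 and 12.47 in the knockout livers after 1 day of PB, against 11.02, 11.62, 11.92, 11.05 and 12.25 in knockout controls. The highest control lay above the lowest treated liver, and the other 4 controls lay below all 5 treated livers. Acly rose by 1.04 ± 0.266 (95% interval 0.51 to 1.56, adjusted p = 0.00668), which is 2.05-fold. Among humanized livers Acly had 12.74, 12.73, 12.63, 11.64 and 12.41 with PB, against 11.88, 11.51, 11.69, 11.65 and 11.47 in controls, a rise of 0.79 ± 0.266 (adjusted p = 0.0359). Here 1 treated liver lay among the controls and the other 4 above them. The wild-type difference of 0.65 was not called.

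Acaca (chr11:84129635-84401651) and Acacb (chr5:114146321-114250761) make the 2 acetyl-CoA carboxylases, of which the product of Acaca feeds malonyl-CoA to synthesis in the cytosol and that of Acacb sits at the mitochondrion, where malonyl-CoA restrains fatty acid oxidation. Acaca had 9.70, 9.56, 9.37, 8.84 and 9.33 in knockout livers with PB on day 1, against 8.43, 8.48, 8.87, 8.19 and 8.98 in knockout controls, a rise of 0.77 ± 0.183 (adjusted p = 0.00317). The ranges overlapped through a single treated liver at 8.84. Acacb had 9.40, 9.53, 9.20, 8.71 and 8.99 with PB, against 7.43, 8.21, 8.52, 7.52 and 8.79 in controls, a rise of 1.07 ± 0.267 (adjusted p = 0.00491), with 1 control above the lowest treated liver. Among humanized livers Acaca rose by 0.54 ± 0.183 (adjusted p = 0.0377) and Acacb by 0.94 ± 0.267 (adjusted p = 0.0103). The wild-type differences were 0.11 for Acaca and 0.58 for Acacb, and neither was called.

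Fasn (chr11:120805958-120825166), the synthase that builds palmitate from malonyl-CoA, had the largest day 1 difference of the 10 members in the knockout. Its levels there were 11.98, 11.94, 11.61, 10.66 and 11.36 with PB, against 9.27, 10.02, 10.73, 9.19 and 10.67 in controls. All treated livers but the one at 10.66 lay above every control. The rise was 1.53 ± 0.344 (95% interval 0.86 to 2.21, adjusted p = 0.00171). Humanized livers had Fasn levels of 11.16, 11.50, 11.92, 9.70 and 10.82 with PB, against 10.83, 10.03, 10.17, 9.71 and 10.04 in controls, and in the wild type 10.71, 11.02, 11.55, 11.54 and 9.72 with PB, against 9.62, 10.56, 10.33, 9.86 and 10.30 in controls. In both genotypes 1 treated liver lay near the lowest control, and the differences of 0.87 in the humanized line and 0.77 in the wild type were not called. The day 1 effect on Fasn was 0.76 larger in the knockout than in the wild type, which did not pass the test (adjusted p = 0.628).

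**Figure D2:**
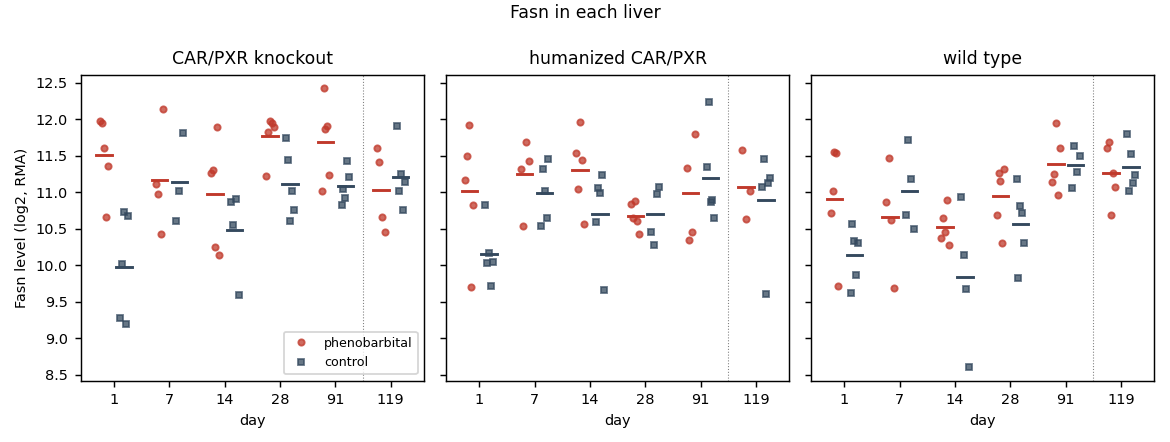
Fasn log2 level (vertical axis) on each day (horizontal axis) in knockout, humanized and wild-type livers, with 1 point per animal, PB left of control, and the bar at the group mean. The day 1 knockout controls, at 9.19 to 10.73, are the lowest knockout group, and the PB groups of days 28 and 91 sit mostly above their controls.

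Elovl6 (chr3:129532386-129638495), which elongates palmitate to stearate, had 11.66, 11.76, 11.18, 10.49 and 11.16 in knockout livers with PB on day 1, against 9.77, 9.79, 10.59, 9.32 and 10.56 in controls, and rose by 1.25 ± 0.302 (adjusted p = 0.00384). In the humanized line it had 11.22, 11.89, 11.48, 10.33 and 10.81 with PB, against 10.26, 9.73, 9.70, 9.33 and 9.82 in controls, a rise of 1.38 ± 0.302 (adjusted p = 0.000547). There every treated liver lay above every control. Scd1 (chr19:44394450-44407709), the stearoyl-CoA desaturase that makes oleate, was at 14.45, 14.50, 14.38, 14.34 and 14.40 with PB and 14.23, 14.24, 14.36, 14.12 and 14.36 in controls of the knockout, a difference of 0.15 that was not called. This probe set averaged 14.29 over all arrays, near the highest value of any probe set (15.07). A dimmer Scd1 probe set (mean 10.89) was 1.09 higher with PB in the knockout (adjusted p over all probe sets = 0.00504) and 0.77 higher in the humanized line (adjusted p = 0.0457), and 0.34 higher in the wild type, which was not called.

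Me1 (chr9:86581363-86695914), the malic enzyme that supplies cytosolic NADPH, was the only member whose knockout groups did not overlap on day 1, with 12.60, 12.48, 11.94, 12.07 and 12.28 in PB livers against 10.88, 11.29, 11.58, 10.97 and 11.89 in controls. It rose by 0.95 ± 0.218 (adjusted p = 0.00212). The humanized groups did not overlap either, with 12.35, 12.78, 11.97, 11.89 and 12.25 against 11.47, 10.99, 11.04, 10.87 and 11.63, a rise of 1.05 ± 0.218 (adjusted p = 0.000283). The share of all genes whose groups did not overlap was not counted, so non-overlap of any member is a description only. In the wild type Me1 rose by 0.74 ± 0.218 (adjusted p = 0.0132), with 1 treated liver at 11.38 below the highest control at 11.45. Me1 was called on day 1 in all 3 genotypes, as was Thrsp.

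Srebf1 (chr11:60199084-60224186), which encodes the SREBP-1 transcription factors, had 11.50, 11.37, 11.48, 11.12 and 11.49 with PB and 10.56, 11.14, 11.08, 10.09 and 11.07 in controls of the knockout on day 1. Only the control at 11.14 lay above the lowest treated liver. Its rise of 0.60 ± 0.206 was just past the threshold (adjusted p = 0.049), while the differences were −0.01 in the humanized line and −0.37 in the wild type, not called. Thrsp (chr7:97412933-97417550), or Spot 14, is a small nuclear and cytosolic protein that follows thyroid hormone and carbohydrate feeding. In the knockout it had 13.52, 13.51, 13.34, 12.95 and 13.18 with PB, against 11.33, 12.43, 12.86, 10.52 and 13.24 in controls, so that 4 of 5 controls lay below all treated livers. It rose by 1.23 ± 0.339 in the knockout (adjusted p = 0.0127), by 1.15 ± 0.339 in the humanized line (adjusted p = 0.0133) and by 1.07 ± 0.339 in the wild type (adjusted p = 0.0223). Pnpla3 (chr15:84167776-84189521), adiponutrin, is a lipid droplet protein whose transcript rises with feeding. It had 8.46, 8.53, 6.66, 6.02 and 6.72 in knockout PB livers against 5.79, 6.08, 6.60, 5.32 and 7.42 in controls, and differences of 1.04, 1.04 and 0.89 in the knockout, humanized and wild-type livers were not called at this spread. Its only probe set was dim, with a mean of 6.56 over all arrays where array medians ran from 5.15 to 5.23.

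Single animals mattered on day 1. Without knockout control 3001, Acly (adjusted p = 0.0517), Acacb (0.0504), Srebf1 (0.151) and Thrsp (0.0826) lost their calls, which left 5 of the 9 knockout calls over the dosing days, while Fasn kept its own at 1.36 (adjusted p = 0.0194). Thrsp was also lost in the knockout without 3004, and Srebf1 without any 1 of 6 animals (adjusted p up to 0.218). Of the humanized calls, Acly and Acaca were each lost without any 1 of 7 animals (adjusted p up to 0.0917 and 0.134), Thrsp without 5004 or 6003 and Acacb without 6002, while Elovl6 and Me1 kept their calls whichever 1 animal was left out. Of the wild-type calls, Me1 was lost without 1003, 2003 or 2004 and Thrsp without any 1 of 5 animals (adjusted p up to 0.0769). Acinar-rich animals on day 1 were 1 knockout PB liver, 1 humanized PB liver, and 1 PB and 3 control livers of the wild type. Without the acinar- or adipose-rich animals Srebf1 lost its knockout day 1 call (adjusted p = 0.0705) and the other 7 stayed. Acly, Acaca and Thrsp lost theirs in the humanized line (adjusted p = 0.0842, 0.057 and 0.0615), which left 3 humanized day 1 calls. In the wild type Me1 and Thrsp lost theirs (adjusted p = 0.343 and 0.16), with 2 controls remaining on that day.

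From day 7 on the members were seldom called on a single day. In the knockout 0 of 10 were called on day 7, where 0.0158% of all genes were called, 0 on day 14 (0.325%), 1 on day 28 (5.16%) and 0 on day 91 (3.45%), and on days 7, 14 and 91 limma gave 0 members at an unadjusted p under 0.05. The call on day 28 was Me1, which fell to 11.44, 12.02, 11.11, 11.63 and 11.10 with PB, against 12.03, 12.20, 11.97, 12.57 and 12.19 in controls, a difference of −0.73 ± 0.218 (adjusted p = 0.0292). That call was lost when 3019, 3020, 4018 or 4020 was left out, and also without the acinar- or adipose-rich animals (−0.64, adjusted p = 0.102). Fasn was 0.49, 0.66 and 0.61 higher with PB on days 14, 28 and 91 and 0.02 higher on day 7, none of them called. On day 28 Fasn had 11.22, 11.83, 11.97, 11.94 and 11.89 with PB, against 11.74, 11.44, 10.60, 11.01 and 10.76 in controls, so that 4 of 5 treated livers lay above all controls. On day 91 it had 11.02, 12.42, 11.87, 11.91 and 11.23, against 10.82, 11.04, 10.92, 11.42 and 11.21, with 3 of 5 treated livers above all controls. The treated values 11.94 on day 28 and 11.91 on day 91 are those of the near-identical arrays 4019 and 4024. They may not come from separate livers.

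Humanized livers had 0 of 10 members called on days 7, 14, 28 and 91, with 1, 3, 1 and 0 members at an unadjusted p under 0.05, where 4.84%, 11.9%, 7.70% and 2.19% of all genes were called. Pnpla3 on day 7 had 7.38, 6.31, 8.44 and 7.85 with PB, against 5.80, 6.24, 6.14, 5.94 and 6.11 in controls, groups that did not overlap, and its difference of 1.45 was not called. Acaca on day 28 (difference −0.35) and Scd1 on day 91 (−0.11) had all treated livers below all controls, and neither was called. For these days too, the share of all genes with such groups was not counted. In the wild type 0 of 10 were called on day 7 (1 unadjusted, 2.72% of all genes), 2 on day 14 (8.79%), 0 on day 28 (2 unadjusted, 5.55%) and 0 on day 91 (0 unadjusted, 2.13%). On day 14 Thrsp had 12.61, 12.73, 13.00, 12.99 and 12.58 with PB, against 12.63, 11.87, 12.05 and 9.96 in controls, a rise of 1.16 ± 0.359 (adjusted p = 0.0274). Without the control at 9.96 (animal 1014) the difference was 0.60 (adjusted p = 0.38). Scd1 on day 14 fell by 0.26 ± 0.073 (adjusted p = 0.015), a call lost without animal 1011 or 2012 or without the acinar- or adipose-rich animals (−0.19, adjusted p = 0.219). This probe set lies near the top of the scale, and the dimmer Scd1 probe set gave −0.39 on that day, not called (adjusted p over all probe sets = 0.468).

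The day 1 effect was set against the mean effect of days 7 to 91 directly, a contrast chosen after the daily differences were seen. In the knockout it was larger on day 1 for 3 of 10 members (1.75% of all genes called): Acaca by 0.86 (adjusted p = 0.0105), Elovl6 by 1.21 (0.0407) and Me1 by 1.32 (0.000586). In the humanized line it was larger for 4 of 10 (3.61% of all genes): Acaca by 0.68 (adjusted p = 0.0412), Elovl6 by 1.10 (0.0448), Scd1 by 0.25 (0.0448) and Me1 by 1.28 (0.000227). In the wild type 0 of 10 were called (limma, 2 unadjusted, 0.990% of all genes). The Fasn difference of 1.09 in the knockout was not called (adjusted p = 0.132).

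Levels were also compared between days within an arm. Among knockout controls 4 of 10 members were lower on day 1 than on the mean of days 7 to 91 (3.53% of all genes called): the differences were −0.98 ± 0.278 for Fasn (adjusted p = 0.0299), −1.05 for Elovl6 (0.00556), −0.60 for Me1 (0.0359) and −0.54 for Acaca (0.023). All 10 were negative there, as they were among humanized controls, where 0 of 10 were called (limma, 5 unadjusted, 0.420% of all genes). Among wild-type controls 9 were negative and 0 called (2 unadjusted, 0.396%). The medians of the 10 differences were −0.53 in knockout, −0.42 in humanized and −0.26 in wild-type controls. Day 1 was the lowest dosing day for 9 of 10 members in knockout controls, 10 of 10 in humanized controls and 4 of 10 in wild-type controls, where the other 6 were lowest on day 14.

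In the PB arms only Me1 was called between day 1 and days 7 to 91. It was 0.72 higher on day 1 in the knockout (adjusted p = 0.00396, 1 of 10 called, 6.31% of all genes) and 0.73 higher in the humanized line (adjusted p = 0.00169, 1 of 10 called, 10.1% of all genes), and in the wild type 0 of 10 were called (limma, 1 unadjusted, 4.99%). Fasn in knockout PB livers was 0.11 higher on day 1 than later (adjusted p = 0.874). The day 1 difference in knockout Fasn thus stood beside a control level 0.98 below, and a PB level 0.11 above, those of later days. Each day's control group is its own set of animals. If the labelled age is that at the start, mice of later days were also older when sampled. What set day 1 apart was not tested.

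Averaged over the 5 dosing days, Fasn rose in the knockout. Fasn in knockout livers with PB ran from 10.14 to 12.42 with a median of 11.49 and a mean of 11.43 ± 0.62 (SD, n = 24), against 9.19 to 11.81 with a median of 10.84 and a mean of 10.74 ± 0.69 (SD, n = 22) in controls. The ranges overlapped widely. The mean of the daily differences was 0.66 ± 0.162 (95% interval 0.34 to 0.98, adjusted p = 0.00143), and a permutation test of Fasn alone with labels permuted within each day gave a p of 0.00076 (two-sided, 1e+05 resamples). The knockout rise of Fasn was singled out with these same values known, so neither p is independent support for it. Of the 10 members 3 were called in the knockout, all higher, where 19.6% of all genes were called in either direction. The others were Acly, with 12.39 ± 0.48 (SD, n = 24) against 11.93 ± 0.45 (SD, n = 22) and a rise of 0.42 ± 0.126 (adjusted p = 0.00982), and Srebf1, with 11.39 ± 0.24 (SD, n = 24) against 11.06 ± 0.41 (SD, n = 22) and a rise of 0.32 ± 0.097 (adjusted p = 0.0108). Pnpla3 missed the threshold at 0.58 (adjusted p = 0.0549).

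Without day 1 the knockout rises were no longer called. Over days 7 to 91 Fasn was 0.44 ± 0.184 higher (adjusted p = 0.0939), Acly 0.27 (0.215) and Srebf1 0.25 (0.118). The unadjusted p of limma was 0.0171 for Fasn, 0.063 for Acly and 0.024 for Srebf1. Instead Me1 fell, by 0.36 ± 0.117 (adjusted p = 0.0242), and it was then 1 of 10 members called, against 12.9% of all genes. This fall is that of the probe set used. The second Me1 probe set (mean 11.33), given below, did not fall in the knockout over all dosing days and was not fitted without day 1. Leaving out day 1 thus ended the knockout calls of Fasn, Acly and Srebf1. It does not show that their rises were confined to day 1. The day 1 effect was not called against the mean effect of days 7 to 91 for Fasn, Acly or Srebf1 (limma, adjusted p = 0.132, 0.19 and 0.552).

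Humanized livers had 4 of 10 members called over the dosing days, all higher, where 32.4% of all genes were called. Pnpla3 had 6.94 ± 0.94 (SD, n = 23) with PB against 6.15 ± 0.59 (SD, n = 24) in controls and rose by 0.81 ± 0.222 (adjusted p = 0.0021). Elovl6 had 10.97 ± 0.46 against 10.48 ± 0.58 (SD) and rose by 0.50 ± 0.140 (adjusted p = 0.00293). Thrsp had 13.22 ± 0.36 against 12.72 ± 0.69 (SD) and rose by 0.50 ± 0.157 (adjusted p = 0.00839). Acacb rose by 0.30 ± 0.124 just past the threshold (adjusted p = 0.0482), and lost the call when any of 30 of 47 animals was left out, and without the acinar- or adipose-rich animals (0.28, adjusted p = 0.0969). Fasn was 0.30 ± 0.159 higher (adjusted p = 0.147), from 11.04 ± 0.58 (SD, n = 23) with PB and 10.75 ± 0.59 (SD, n = 24) in controls. Over days 7 to 91, Pnpla3 was higher by 0.76 (adjusted p = 0.0147) and Scd1 lower by 0.12 (adjusted p = 0.00587), 2 of 10 called against 28.2% of all genes, while Elovl6 (0.28), Thrsp (0.33) and Acacb (0.15) were not called.

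In the wild type 3 of 10 were called over the dosing days, 2 higher and 1 lower, where 31.5% of all genes were called. Thrsp had 13.00 ± 0.42 (SD, n = 24) with PB against 12.22 ± 0.76 (SD, n = 22) in controls and rose by 0.75 ± 0.159 (adjusted p = 6.7e-05). Pnpla3 had 6.51 ± 0.82 against 5.79 ± 0.45 (SD) and rose by 0.70 ± 0.225 (adjusted p = 0.0101). Scd1 had 14.13 ± 0.22 against 14.24 ± 0.12 (SD) and fell by 0.12 ± 0.032 (adjusted p = 0.00314), and its dimmer probe set gave −0.19, which was not called. Fasn was 0.30 ± 0.161 higher (adjusted p = 0.152), from 10.89 ± 0.58 (SD, n = 24) with PB and 10.56 ± 0.76 (SD, n = 22) in controls. The same 3 members were called without day 1, against 25.4% of all genes: Thrsp 0.67 (adjusted p = 0.0025), Pnpla3 0.65 (0.0458) and Scd1 −0.16 (0.000533).

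**Figure D3:**
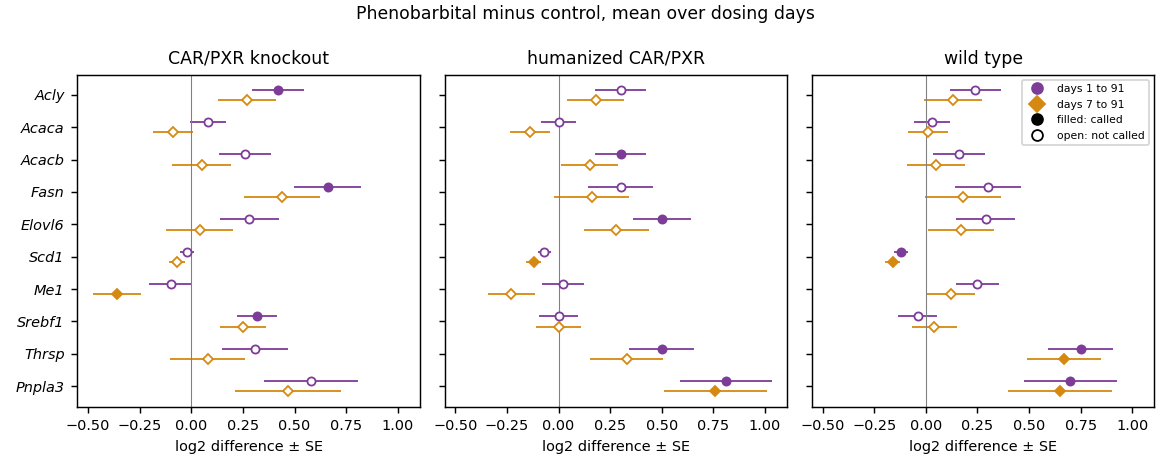
PB minus control for each member, averaged over days 1 to 91 (purple circles) and over days 7 to 91 (orange diamonds), as log2 difference ± SE of the fit in the 3 genotypes, filled where called. In the knockout Fasn moves to 0.44 from 0.66 when day 1 is left out and its symbol becomes open, while Thrsp and Pnpla3 stay filled in the wild type.

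Over all members the median dosing-day difference was 0.30 in the knockout, 0.30 in the humanized line and 0.24 in the wild type, where the median of all genes was 0.01, 0.00 and −0.01. Ranked by the mean level on dosing days, Fasn was highest in knockout PB livers (11.43), then in humanized PB (11.04), wild-type PB (10.89), humanized control (10.75), knockout control (10.74) and wild-type control livers (10.56). Each step in this order was smaller than the SD within an arm, which was 0.58 to 0.76.

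The rise of Fasn was not shown to be particular to the knockout. Its dosing-day effect was 0.36 larger in the knockout than in the wild type (95% interval −0.09 to 0.82, adjusted p = 0.341), and 0.36 smaller in the humanized line than in the knockout (difference −0.36, interval −0.81 to 0.09, adjusted p = 0.361). Of the 10 members 0 had an effect that differed between knockout and wild type (limma, 2 unadjusted, 13.4% of all genes called), 0 between humanized and wild type (0 unadjusted, 1.88%) and 0 between humanized and knockout (1 unadjusted, 10.1%). Srebf1 came nearest, with an effect 0.37 larger in the knockout than in the wild type (adjusted p = 0.0596), and Me1 had one 0.35 smaller (−0.35, adjusted p = 0.103). Over days 7 to 91 the Me1 effect was −0.49 ± 0.164 in the knockout relative to the wild type (adjusted p = 0.0365), the 1 member called of 10 where 11.2% of all genes were called. The corresponding counts were 0 of 10 for humanized against wild type (limma, 1 unadjusted, 2.22% of all genes) and 0 of 10 for humanized against knockout (0 unadjusted, 9.13%). The second Me1 probe set was called for the same difference over all dosing days (−0.52, adjusted p over all probe sets = 0.0288), having risen by 0.54 in the wild type (0.000175) and 0.38 in the humanized line (0.00844), and by 0.02 in the knockout, not called.

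After dosing had ended no member was called. On day 119, 0 of 10 members were called between PB and control livers in the knockout, the humanized line and the wild type (limma, 0 unadjusted in each), where 0.111%, 0.214% and 0.0238% of all genes were called. Fasn had 11.61, 11.41, 10.66 and 10.46 in knockout PB livers, against 11.90, 11.01, 11.25, 10.75 and 11.14 in controls, a difference of −0.17. The day 119 effect was set against the dosing-day mean effect in the same fit. The difference was called for 0 of 10 members in each genotype (limma), with 2 unadjusted in the knockout (0.341% of all genes called), 0 in the humanized line (10.1%) and 1 in the wild type (3.69%).

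Without PB, lipogenic levels differed between the genotypes. Over the 6 days 7 of 10 members were called between knockout and wild-type controls, 6 higher and 1 lower, where 22.4% of all genes were called. Elovl6 had the smallest adjusted p, with 10.93 ± 0.67 (SD, n = 27) in knockout, 10.52 ± 0.59 (SD, n = 29) in humanized and 10.12 ± 0.65 (SD, n = 27) in wild-type controls. Its knockout level ran from 9.32 to 12.16 with a median of 11.00, and its wild-type level from 8.74 to 11.16 with a median of 10.05. The difference of 0.79 ± 0.131 (adjusted p = 6.41e-07) had the same sign on all 6 days, from 0.50 to 1.46.

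Pnpla3 had 6.75 ± 0.87 (SD, n = 27) in knockout and 5.84 ± 0.43 (SD, n = 27) in wild-type controls, a difference of 0.90 ± 0.209 (adjusted p = 0.000507) that lay between 0.51 and 1.22 on the 6 days. The wild-type controls went down to 5.11, where array medians ran from 5.15 to 5.23, so this difference starts from dim values. Me1 was 0.48 ± 0.095 higher (adjusted p = 3.15e-05), also on all 6 days. Thrsp was 0.45 ± 0.147 higher (0.0183), Acaca 0.24 ± 0.080 (0.0205) and Scd1 0.08 ± 0.030 (0.035). The dimmer Scd1 probe set was 0.37 higher (adjusted p over all probe sets = 0.0149). Srebf1 went the other way and was lower in knockout controls by 0.27 ± 0.090 (difference −0.27, adjusted p = 0.02), with 11.08 ± 0.37 (SD, n = 27) against 11.36 ± 0.43 (SD, n = 27). Acly (0.15) and Acacb (0.29, adjusted p = 0.0554) were not called. Fasn had 10.82 ± 0.67 (SD, n = 27) in knockout and 10.71 ± 0.76 (SD, n = 27) in wild-type controls, a difference of 0.12 ± 0.150 (adjusted p = 0.608) that was positive on 3 of 6 days.

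Against wild-type controls, humanized controls had 5 of 10 members called, 4 higher and 1 lower, where 28.0% of all genes were called. Elovl6 was 0.39 ± 0.128 higher (adjusted p = 0.0134), Thrsp 0.41 (0.0245), Me1 0.26 (0.0225) and Acaca 0.23 (0.0202), and Srebf1 was lower by 0.24 ± 0.087 (difference −0.24, adjusted p = 0.0262). Both comparisons use the same wild-type controls, so they are not independent of each other. Between humanized and knockout controls 2 of 10 were called, both lower in the humanized line, where 16.6% of all genes were called. These were Elovl6 (−0.40 ± 0.129, adjusted p = 0.0218), lower on all 6 days, and Pnpla3 (−0.57 ± 0.205, adjusted p = 0.0397). Elovl6 thus stood in the order knockout, humanized, wild type with each step called by the probe set used. The dimmest of 3 Elovl6 probe sets (mean 6.50) gave 0.24 for knockout minus wild type (adjusted p over all probe sets = 0.292) and −0.18 for humanized minus wild type (0.393), neither called and the −0.18 opposite in sign. Without control 3010 the step between humanized and knockout was no longer called (adjusted p = 0.0587), nor was Acaca between knockout and wild type (0.0623). Without control 1014 Thrsp lost its calls against the wild type in the knockout (0.35, adjusted p = 0.0584) and in the humanized line (0.31, 0.0798). Without control 1010 Me1 (0.0519) and Thrsp lost theirs in the humanized line, Srebf1 lost its own there without 5028, 1008 or 1011, Scd1 in the knockout without any 1 of 8 animals and Pnpla3 between humanized and knockout without any 1 of 15.

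**Figure D4:**
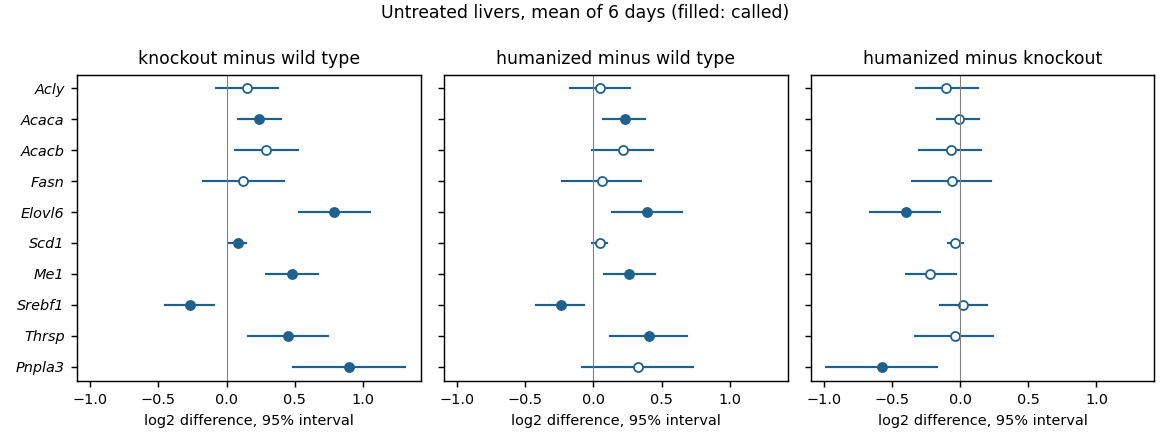
Differences between untreated livers of the 3 genotypes for each member, averaged over 6 days, as log2 difference with 95% interval, filled where called. Elovl6 and Pnpla3 are furthest to the right for knockout minus wild type (0.79 and 0.90), Srebf1 is to the left of 0 in both comparisons with the wild type, and Fasn is near 0 in all 3.

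Markers of pancreas tissue differed between the genotypes, and their part in the untreated differences was not tested. Acinar- or adipose-rich animals were 5 of 27 knockout, 1 of 29 humanized and 8 of 27 wild-type controls, and on dosing days the mean over 7 acinar markers ran from 5.42 to 10.40 in knockout, 5.49 to 7.16 in humanized and 5.62 to 10.63 in wild-type controls. Cela1 was called lower in knockout than in wild-type controls (−0.88), and all 7 acinar markers were lower in humanized than in wild-type controls. Without those animals 4 of 10 members were called between knockout and wild type, namely Elovl6 (0.83, adjusted p = 2.13e-05), Pnpla3 (0.97, 0.00287), Me1 (0.41, 0.00677) and Thrsp (0.60, 0.0126), while Acaca (0.22, 0.1), Scd1 (0.07, 0.159) and Srebf1 (−0.13, 0.41) were not. Between humanized and wild type Elovl6 (0.51), Thrsp (0.60) and Acaca (0.28) stayed and Me1 (0.25, 0.085) and Srebf1 (−0.08, 0.62) did not. Between humanized and knockout 0 of 10 stayed called, with Elovl6 at −0.32 (adjusted p = 0.102) and Pnpla3 at −0.59 (0.0528). The share of all genes called in this smaller set was not worked out. With fewer animals a lost call does not show a changed difference. The 3 dosing-day calls of the knockout stayed without those animals, Fasn at 0.67 (adjusted p = 0.00332).

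Across animals the members varied together. After each group's mean was subtracted, Pearson's r over 166 samples was positive for all 45 pairs of members, from 0.18 (Me1 with Srebf1) to 0.91 (Acaca with Elovl6), with a median of 0.70. Fasn went most closely with Elovl6 (0.90), Thrsp (0.87), Acly (0.86), Acaca (0.83), Acacb (0.81) and Pnpla3 (0.80), less so with Srebf1 (0.75), and least with Me1 (0.58) and Scd1 (0.54). The points share arrays, so array-wide differences in RNA and tissue enter every pair, and the correlations are descriptions only. Srebf1 also went loosely with Scd1 (0.26) and Acacb (0.44).

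**Figure D5:**
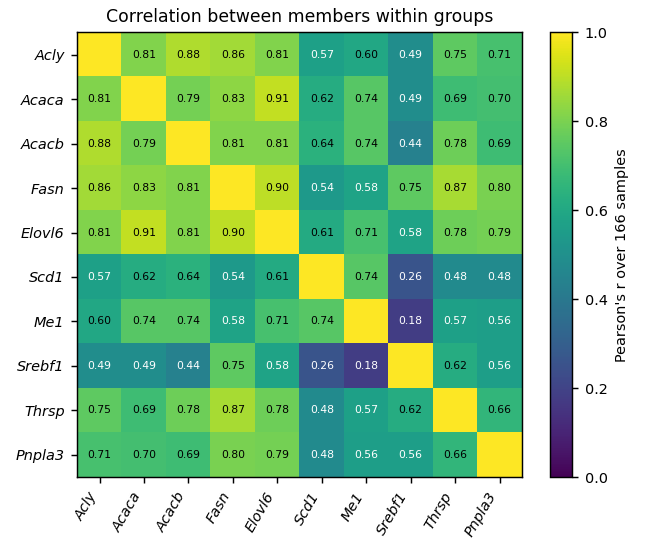
Pearson's r between each pair of members over 166 samples after subtracting group means, on a scale of 0 (dark) to 1 (yellow). Acly, Acaca, Acacb, Fasn, Elovl6, Thrsp and Pnpla3 form a bright block, and the rows of Srebf1, Scd1 and Me1 are darker.

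Of all other tested genes, those most like Fasn within groups were Gpam (0.90), which starts triglyceride assembly, Rpia (0.82), an enzyme of the pentose phosphate pathway, Slc25a44 (0.81), a mitochondrial carrier, Rassf6 (0.79) and Pgd (0.78), which makes NADPH. Over the 36 group means they were Gpam (0.93), Mid1ip1 (0.91), a partner of acetyl-CoA carboxylase, Rhou (0.90), Rassf6 (0.87) and Aacs (0.85), a cytosolic acetoacetyl-CoA synthetase. Among 10 fasting-responsive genes, Cpt1a, the gate of mitochondrial fatty acid oxidation, had −0.66 with Fasn within groups, the gluconeogenic Pck1 −0.60 and the lipase inhibitor Angptl4 −0.51. These 3 were the most negative of the list. The others were Cyp4a14 (−0.22), Acot1 (−0.15), Fgf21 (−0.09), Igfbp1 (0.01), G6pc (0.06), Pdk4 (0.18) and Ppargc1a (0.26).

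Neighbouring pathway genes were read from lists chosen with earlier results known. Their calls over the dosing days stand against 19.6% of all genes in the knockout, 32.4% in the humanized line and 31.5% in the wild type, and a share near these is no result about a list. Of 10 transcription factors of lipogenesis 0 were called in the knockout (limma, 3 unadjusted), 3 in the humanized line (2 higher and 1 lower, near the 32.4% of all genes) and 5 in the wild type (2 higher and 3 lower). Pparg, which drives lipid storage, rose by 0.33 in the humanized line (adjusted p = 0.000435) and 0.30 in the wild type (0.00199). The liver X receptor gene Nr1h3 fell by 0.13 in the humanized line (0.00153) and by 0.11 in the wild type (0.0066). Mlxipl, which encodes ChREBP, was 0.10 higher in the humanized line (0.0317) and 0.07 and 0.05 higher in the knockout and wild type, not called. Pklr, a ChREBP target, was not called in any genotype (−0.14, −0.14 and −0.02 in the knockout, humanized and wild-type livers).

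Of 6 genes of SREBP processing 1 rose and 1 fell in the knockout, 3 rose in the humanized line, and 2 rose and 1 fell in the wild type, where 19.6%, 32.4% and 31.5% of all genes were called. Insig1, which holds SREBP in the endoplasmic reticulum and is itself an SREBP target, rose in all 3, by 0.29 (adjusted p = 0.00458) in the knockout, 0.21 (0.0319) in the humanized line and 0.30 (0.00142) in the wild type. Insig2 rose by 0.40 in the humanized line (1.29e-06) and by 0.28 in the wild type (0.00099). Of 8 sterol synthesis genes 2 rose in the knockout, 5 in the humanized line and 8 in the wild type, where 2 of 8 is near the 19.6% of all genes in the knockout, with Sqle, squalene epoxidase, up by 0.56 (0.00171) in the humanized line and 1.22 (1.72e-11) in the wild type. In untreated livers 8 of these 8 were higher in the knockout and 7 in the humanized line than in the wild type, where 22.4% and 28.0% of all genes were called, Sqle by 1.41 and 1.16.

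Of 10 genes of NADPH and carbon supply 2 rose in the knockout, 3 in the humanized line, and 3 rose and 1 fell in the wild type, counts near the 19.6%, 32.4% and 31.5% of all genes. In the knockout the citrate carrier Slc25a1 rose by 0.20 (adjusted p = 0.000114). Pgd rose by 0.44 (5.49e-06) in the humanized line and by 0.35 (0.000364) in the wild type. Of 10 other genes of elongation and desaturation 2, 1 and 2 rose in the knockout, humanized and wild-type livers, at or below those shares. Mid1ip1, a partner of acetyl-CoA carboxylase and itself no elongase or desaturase, rose by 0.46 (0.000147) in the knockout. Elovl1, which makes very long chains, rose by 0.24 (0.000206), 0.52 (1.83e-17) and 0.50 (5.48e-16) in the knockout, humanized and wild-type livers. Untreated, Fads1, a desaturase of polyunsaturated fatty acids, was higher by 0.30 in the knockout and 0.17 in the humanized line than in the wild type, and Elovl3 lower by 0.38 and 0.43.

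Of 9 glycerolipid genes 1 rose and 2 fell in the knockout, 1 rose and 4 fell in the humanized line, and 2 fell in the wild type, where 19.6%, 32.4% and 31.5% of all genes were called. Gpam rose by 0.43 in the knockout (adjusted p = 0.00033) and 0.24 in the humanized line (0.0306), and its 0.22 in the wild type was not called (0.0574). On day 1 Gpam rose by 0.89 (0.00158) in the knockout and 0.64 (0.0207) in the humanized line. Lpin1, a phosphatidate phosphatase and coactivator, fell by 0.60 (0.00485) in the knockout and 0.62 (0.00123) in the humanized line. Of 6 genes listed for the control of malonyl-CoA 2 fell in the knockout, 1 fell in the humanized line, and 1 rose and 1 fell in the wild type, where Trib3 rose by 0.80 (1.89e-08). Of 8 insulin signalling genes 2 fell in the knockout, 1 rose and 2 fell in the humanized line, and 1 rose and 4 fell in the wild type, where Irs2 fell by 0.44 (0.00094). The counts of both these lists are to be read against the same shares. Irs2 was at −0.18 in the knockout and −0.08 in the humanized line, not called.

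Of 10 fasting-responsive genes 4 fell in the knockout, 4 fell and 1 rose in the humanized line and 7 fell in the wild type, where 19.6%, 32.4% and 31.5% of all genes were called. Angptl4 fell by 0.90 (adjusted p = 2.75e-06) in the knockout, by 0.93 (6.16e-08) in the humanized line and by 1.29 (6.86e-13) in the wild type. Pck1 fell by 0.51 (0.00473), 0.87 (7.63e-08) and 0.55 (0.000844), and Cpt1a by 0.31 (9.64e-05), 0.42 (3.66e-09) and 0.22 (0.00221), in the same order of genotypes. These 3 genes were called lower in all 3 genotypes over the dosing days. Of 12 clock genes 2 fell in the knockout, 1 rose and 3 fell in the humanized line and 2 fell in the wild type, near or below those shares. Untreated, 10 of the 12 were called between humanized and wild-type livers, 7 higher and 3 lower, among them Dbp, 1.91 higher, where 28.0% of all genes were called. Between knockout and wild type 4 were called, where 22.4% of all genes were. The part of feeding or of the time of day in the lipogenic differences was not tested.

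Markers of other liver cells were counted in the same way, against 19.6%, 32.4% and 31.5% of all genes called in the knockout, humanized and wild-type livers. Over the dosing days 1 of 7 stellate cell markers fell in the knockout, 3 in the humanized line and 3 in the wild type, with Lrat, which stores vitamin A, down by 0.77 in the humanized line. Of 7 Kupffer cell markers 1 fell in the wild type and 0 in the knockout and humanized line, and 3 were higher in knockout than in wild-type controls (22.4% of all genes called), Cd68 by 0.32. Of 5 endothelial markers 1 fell in the humanized line, and of 3 cholangiocyte markers 1 rose in the knockout and 1 in the humanized line. Under PB 0 of 7 acinar and 0 of 3 adipose markers were called in any genotype. Of 6 CAR response genes 1 rose in the knockout, 6 in the humanized line and 6 in the wild type.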

How the data were processed

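Liver RNA of 167 labelled animals was measured on Affymetrix mouse arrays. The deposited values are log2 expression, made by the authors with RMA per the submitters' processing notes; versions of upstream tools: not given in the sources used here. They ran from 2.11 to 15.07, array medians from 5.15 to 5.23, and 0 sample columns were left unused. Depth does not apply to arrays, whose number limits the precision.

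Of 45101 probe sets 64 were controls; 34958 had 1 gene symbol, 932 several and 9211 none in the platform annotation, and 34754 of them matched RefSeq with 0 renamed. Per gene the probe set with the highest mean was used, and genes above the array's own median on at least 3 arrays were tested (12622; 5572 were dimmer). Over 13861 array pairs and 2707 bright genes, arrays 6026 and 6030 (humanized, PB, day 119) differed with an SD of 0.0613 and were averaged as 1 sample; arrays 4019 and 4024 differed with an SD of 0.056 but carry different labels and were kept. All other pairs differed by at least 0.1221.

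One limma fit (3.58.1, R 4.3.3) with 36 genotype, treatment and day groups (130 residual degrees of freedom) gave each contrast with eBayes and Benjamini-Hochberg adjustment over all tested genes, at 0.05. Dosing-day effects are the equally weighted mean of the daily differences. The fit was tried on simulated data in which genes varied independently. The members here varied together, so that trial says nothing about counts of members called. Named genes were the 10 members, the largest called genes of each list, a few regulators named in any case, and the 5 genes most like Fasn on each measure. The members and lists were chosen with earlier results of these data known. Alternatives changed the probe set rule, filter, prior, normalization, samples and days.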

Additional observations from a re-analysis of the deposited data

Results flagged for a closer look

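In 15 of 340 sets of values, each of 1 member in 1 group of 4 or 5 animals (4.41%), the highest or lowest animal stood apart from the others by Dixon's test at 95%, where chance gives about 5%. Among knockout PB livers these were Fasn at 11.22 on day 28 (others 11.83 to 11.97), Me1 at 12.38 on day 7 (others 11.28 to 11.36), Me1 at 12.70 on day 91 (others 11.40 to 11.69) and Thrsp at 13.58 on day 28 (others 13.19 to 13.30). Among knockout controls 1 animal on day 14 was low for both Acly, at 10.95 (others 11.93 to 12.06), and Thrsp, at 11.36 (others 12.61 to 12.74). Among humanized PB livers they were Acaca at 8.69 on day 14 (others 9.14 to 9.32), Me1 at 11.36 on day 14 (others 11.51 to 11.55) and Acacb at 7.39 on day 91 (others 8.75 to 9.03). Among humanized controls 1 animal on day 91 was high for both Acaca, at 10.05 (others 9.06 to 9.19), and Acacb, at 9.65 (others 8.29 to 8.58). Acly was at 10.67 in 1 humanized control on day 14 (others 11.92 to 12.28). Fasn was at 9.61 in 1 humanized control on day 119 (others 11.07 to 11.45), an animal whose mean over acinar markers was 9.90. Among wild-type PB livers of day 7, Acaca was at 9.01 in 1 animal (others 8.64 to 8.70) and Scd1 at 13.62 in another (others 14.11 to 14.13), whose mean over acinar markers was 8.49.

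The PB effect of day 1 exceeded the mean effect of days 7 to 91 in a test of the difference in 7 cases over 4 genes, with the values given above: in the knockout Acaca 0.86, Elovl6 1.21 and Me1 1.32, and in the humanized line Acaca 0.68, Elovl6 1.10, Scd1 0.25 and Me1 1.28.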

How the results depend on the processing

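None of the results tried changed direction. With the mean of all probe sets of a gene, 1 member's dosing-day effect was called between knockout and wild type (against 0) and 3 members between untreated humanized and wild-type livers (against 5), and with only the groups compared in the fit 1 member was called between untreated humanized and knockout livers (against 2). Leaving out day 1 and leaving out acinar- or adipose-rich animals were chosen after seeing the data. Without day 1 the dosing-day mean called 1 member in the knockout (against 3) and 2 in the humanized line (against 4), calls on single days numbered 1, 0 and 2 in the knockout, humanized and wild-type livers (against 9, 6 and 4), 1 effect differed between knockout and wild type, and knockout Fasn was at 0.44 (adjusted p = 0.0939). Without the acinar- or adipose-rich animals, single-day calls numbered 3 in the humanized line and 2 in the wild type, and untreated livers differed for 4 members between knockout and wild type, 3 between humanized and wild type and 0 between humanized and knockout (against 7, 5 and 2). Apart from the fits without day 1, shares of all genes called were not worked out for these alternatives. Fits with fewer animals also make a call harder to reach.

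With each animal left out in turn, the dosing-day mean called 3 to 4 members in the knockout, 3 to 5 in the humanized line and 3 to 4 in the wild type, and single-day calls numbered 5 to 9, 3 to 7 and 2 to 6. The single-day calls were fewest without 3001 in the knockout, without 5004, 6002 or 6003 in the humanized line and without 2003 or 2004 in the wild type. Effects called between genotypes numbered 0 to 1 for knockout and wild type and 0 to 0 for both other pairs, and day 119 gave 0 to 0 throughout. Untreated counts were 5 to 8 for knockout and wild type, 3 to 5 for humanized and wild type (fewest without 1010) and 0 to 3 for humanized and knockout. Knockout Fasn stayed at 0.60 to 0.73 (highest adjusted p 0.00583). Of 42 single-gene calls, 1271 of 1376 values with an animal left out kept the call. Counted by result, with the knockout Fasn mean included, only 21 of 43 kept the call whichever animal was left out. Of the 42 calls, 8 were lost with the mean of all probe sets of a gene and 6 with only the groups compared. Without the acinar- or adipose-rich animals 16 were lost. No paired analysis was possible because each animal number belongs to a single animal and no number is shared between groups.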
